A study of Mus musculus with 2 samples.

Results

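Nicotinic acetylcholine receptors are ion channels assembled from several subunits, which open when they bind acetylcholine. The 9 genes described here are 8 neuronal subunits of these receptors (Chrnb4, Chrna3, Chrna5, Chrna6, Chrnb3, Chrna4, Chrnb2 and Chrna7) and Gm47887, a long non-coding RNA gene beside Chrnb4, out of 32227 genes in the count tables. They were taken by gene symbol. Chrnb4 and Gm47887 were chosen by the ratio of their counts between the libraries, which is therefore given for them as a description only. The counts come from nuclei of whole mouse retina at postnatal day 21 (strain C57 BL/6J), sequenced as 1 library per genotype. The Cre- library (genotype label WT) came from age-matched animals of Cre-negative breeders, and the sources used here do not say whether these animals carried loxP alleles. The Tet tcKO library came from animals with Tet1 loxp/loxp, Tet2 loxp/loxp and Tet3 loxp/loxp alleles and the Chx10-EGFP/cre transgene, which is active in retinal progenitors. The transgene is mosaic, and its carriers were in-crossed to lower the share of cells that escape it. Each library mixed nuclei from several animals without a tag for the animal, so each genotype is 1 sample, no test between genotypes was possible, and every interval given is an exact 95% interval that covers counting error only. For a count of 0, the text gives a floor of 3 counts in place of an interval.

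In the brain and in autonomic ganglia, a receptor is built from alpha subunits, which carry the main part of the acetylcholine site, and beta subunits. Chrna3, Chrna5 and Chrnb4 lie side by side in the genome, and their products form the ganglionic type of receptor, in which Chrna5 is an accessory subunit. Chrna4 with Chrnb2 forms the type most common in brain, Chrna6 with Chrnb3 takes part in receptors of visual and dopaminergic neurons, and Chrna7 forms channels by itself. In the retina acetylcholine is released by starburst amacrine cells, and retinal ganglion cells (RGCs) are among the cells that respond to it. The enzymes TET1, TET2 and TET3 oxidize 5-methylcytosine, which in mammals is found mainly at CpG dinucleotides.

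From Cre- there were 11510585 UMIs (unique molecular identifiers, each standing for 1 captured RNA molecule) in 7357 nuclei, a median of 1107 in each. From Tet tcKO there were 16590747 UMIs in 6766 nuclei, a median of 1836.5, and 1 barcode occurred in both libraries. Mitochondrial genes took 5.47% of UMIs in Cre- and 1.76% in Tet tcKO. The authors annotated 5214 nuclei as rods in Cre- and 6 in Tet tcKO, and 265 and 3225 as cones. In a check of each cluster's 10 leading genes against marker lists, a cluster failed only if markers of another class outnumbered its own. A cluster without any listed marker thus passed, as amacrine clusters 12, 23 and 27 and RGC cluster 8 did. A pass does not by itself establish identity. The clusters of amacrine cells, RGCs and horizontal cells all passed, whereas at least 1 cluster of every other class failed. Rods and cones were therefore compared only when pooled, and levels in bipolar cells and Müller glia are given per library under the annotated names. The pooled rods and cones came from different clusters in the libraries, mainly rod clusters in Cre- and 8 cone clusters in Tet tcKO. RGCs and amacrine cells differed in their clusters too. RGC cluster 8 held 394 Cre- and 29 Tet tcKO nuclei, and RGC cluster 15 held 4 and 217. Amacrine cluster 27 held 256 and 21, and amacrine cluster 12 held 14 and 357. Ratios in these classes thus mix cluster make-up with level per nucleus. Counts over whole genes were 578 and 1016 UMIs for Tet1, 1206 and 2312 for Tet2 and 2076 and 2883 for Tet3 in Cre- and Tet tcKO, and since they do not show which reads lie in deleted exons, they check nothing about the deletion.

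Chrnb4 (ENSMUSG00000035200) lies on the minus strand at chr9:54935438-54956076 of GRCm39, and Gm47887 (ENSMUSG00000111157), at chr9:54972211-54974747 on the same strand, ends 16.134 kb upstream of it without overlap. Chrna3 (ENSMUSG00000032303; chr9:54917395-54933941, minus strand) lies 1.496 kb downstream of Chrnb4. Chrna5 (ENSMUSG00000035594; chr9:54888164-54918184, plus strand) is transcribed towards Chrna3 and overlaps it by 790 bp. Chrna6 (chr8:27893240-27903974, minus strand) and Chrnb3 (chr8:27858739-27889758, plus strand) are neighbours as well, and Chrna4 (chr2:180660173-180685339), Chrnb2 (chr3:89653502-89671953) and Chrna7 (chr7:62731494-62862322), all on the minus strand, stand apart. The 3 clustered subunit genes matched the RefSeq promoter table (GRCm38.p6), which gives 250 bases before and 50 after each start. Their promoters are shown because CpG dinucleotides are where TET enzymes act, and because these genes were higher in Tet tcKO. Capitals mark each CpG, and each sequence is written 5′ to 3′ on the gene's own strand.
Chrnb4: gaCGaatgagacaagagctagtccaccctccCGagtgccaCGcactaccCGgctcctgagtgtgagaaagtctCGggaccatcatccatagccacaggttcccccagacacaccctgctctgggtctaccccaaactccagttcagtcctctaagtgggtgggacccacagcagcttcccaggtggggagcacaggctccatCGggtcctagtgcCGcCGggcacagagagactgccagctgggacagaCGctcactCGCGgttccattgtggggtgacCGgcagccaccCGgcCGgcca
Chrna3: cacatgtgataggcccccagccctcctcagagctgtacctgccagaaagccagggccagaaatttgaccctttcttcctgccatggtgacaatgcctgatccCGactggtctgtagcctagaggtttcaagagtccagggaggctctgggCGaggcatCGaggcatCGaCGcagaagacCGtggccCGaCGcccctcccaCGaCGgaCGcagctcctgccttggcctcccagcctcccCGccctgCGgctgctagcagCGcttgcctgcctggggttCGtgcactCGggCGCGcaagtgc
Chrna5 (start 1): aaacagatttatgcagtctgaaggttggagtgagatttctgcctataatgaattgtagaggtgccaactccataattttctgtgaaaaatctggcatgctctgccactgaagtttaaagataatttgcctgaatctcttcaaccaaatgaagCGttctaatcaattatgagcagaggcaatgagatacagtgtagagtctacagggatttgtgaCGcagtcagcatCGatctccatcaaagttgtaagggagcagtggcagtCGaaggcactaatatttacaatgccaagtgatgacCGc
Chrna5 (start 2): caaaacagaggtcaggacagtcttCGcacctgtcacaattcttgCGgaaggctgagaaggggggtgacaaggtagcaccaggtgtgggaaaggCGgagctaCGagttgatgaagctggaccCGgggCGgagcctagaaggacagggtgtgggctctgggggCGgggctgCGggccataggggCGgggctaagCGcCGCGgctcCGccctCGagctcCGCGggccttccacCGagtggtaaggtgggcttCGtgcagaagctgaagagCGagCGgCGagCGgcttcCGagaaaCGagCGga

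Each window matched GRCm39 exactly once, at chr9:54955779-54956078 (minus strand) for Chrnb4, chr9:54933797-54934096 (minus strand) for Chrna3, and chr9:54887914-54888213 and chr9:54888522-54888821 (plus strand) for the pair of Chrna5 starts. Nearly all of the Chrnb4 window lies inside the GENCODE gene, whose start is farther upstream. The Chrnb4 window held 14 CpGs, and 36.3% of the 32851 promoters in the table held as many or more. The Chrna3 window held 18 CpGs (29.7% of promoters held as many or more). The Chrna5 windows held 5 and 25 (62.0% and 18.4%), around a median of 7 over the table. The letters GGGCGG, the core of the GC box bound by Sp1-type factors, occurred on either strand 4 times in the Chrna5 window at start 2, once in the Chrna3 window and not in the other windows, against 35.7% of promoters with at least 1 match. The letters TAATCC, a core bound by the photoreceptor factor CRX, were in none of the windows and in 7.06% of promoters. The letters CAGCTG, a core bound by many basic helix-loop-helix factors, occurred once in the Chrnb4 window, not in the others, and in 16.3% of promoters. The CpG counts depend on the window. In the 250 bases before each GENCODE start, Chrnb4 had 2 CpGs, Chrna3 4, Chrna5 3 and Gm47887 3, and CAGCTG occurred once, at Gm47887. The RefSeq windows were chosen after these counts had been seen. No methylation was measured in these libraries, and a match or its absence in these windows is a description of the letters only.

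The 4 genes of the Chrnb4 locus were the members with 2-fold or higher levels in Tet tcKO when all nuclei were summed. Levels are UMIs per 1000000 UMIs of the same library or class (CPM), and ratios are Tet tcKO over Cre- on the log2 scale. Of the 9 members, 4 were 2-fold or more higher and 0 lower. The 4 include Chrnb4 and Gm47887, which were chosen by their ratio, and Chrna5, which did not reach 10 CPM. With no filter other than more than 3 UMIs, 8.87% of all genes were 2-fold or more higher. Of the 11158 genes that reached 10 CPM in either library, 3.18% were 2-fold or more higher (355) and 2.48% lower (277). With the trimmed mean of M values (TMM) scaling that split was 276 higher and 356 lower. Of the members, 7 passed 10 CPM (3 of them 2-fold or more higher), and Chrnb4, Chrna3 and Gm47887 passed only through Tet tcKO, which by itself requires a higher level there. Because the libraries differ in their shares of cell classes, the sum over all nuclei mixes cell composition with level per nucleus.

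Chrnb4, the beta subunit of the ganglionic receptor, was counted 10 times in Cre- (0.869 CPM, 0.417 to 1.60) and 748 times in Tet tcKO (45.1 CPM, 41.9 to 48.4). The ratio was 51.9-fold (log2 5.70, 4.81 to 6.76). Gm47887 had 9 UMIs in Cre- (0.782 CPM, 0.358 to 1.48) and 415 in Tet tcKO (25.0 CPM, 22.7 to 27.5), a log2 ratio of 5.00 (4.06 to 6.14). Ranked from the highest ratio, Chrnb4 was 5 and Gm47887 was 9 of 11158 genes, and 0.0717% of genes (8) had a log2 ratio of 5 or more. Gm47887, at 4.9996 before rounding, was not among the 8. Both genes were chosen by this ratio, so their high ranks repeat that choice.

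Chrna3, the alpha subunit that pairs with Chrnb4, had 44 UMIs in Cre- (3.82 CPM, 2.78 to 5.13) and 363 in Tet tcKO (21.9 CPM, 19.7 to 24.3). Its log2 ratio was 2.52 (2.06 to 3.00), rank 35 of 11158. The accessory subunit Chrna5 was sparse, with 10 UMIs in Cre- (0.869 CPM, 0.417 to 1.60) and 65 in Tet tcKO (3.92 CPM, 3.02 to 4.99), a log2 ratio of 2.17 (1.20 to 3.30). The sources used here do not say whether reads were counted by strand, so reads in the stretch where Chrna5 and Chrna3 overlap cannot be told apart. The same holds for Gm47877, an antisense gene inside Chrnb4, which had 1 UMI in Cre- and 10 UMIs in Tet tcKO.

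The other 5 subunits stayed below 2-fold. Chrna7 came nearest, with 259 UMIs in Cre- (22.5 CPM, 19.8 to 25.4) and 744 in Tet tcKO (44.8 CPM, 41.7 to 48.2), a ratio of 1.99-fold (log2 0.99, 0.79 to 1.20). Chrnb3 had 36.4 CPM (33.0 to 40.1) and 59.6 CPM (56.0 to 63.4), a log2 ratio of 0.71 (0.55 to 0.88). Chrna6 had 17.5 CPM (15.2 to 20.1) and 24.5 CPM (22.2 to 27.0), a log2 ratio of 0.48 (0.24 to 0.73). Chrnb2 had 16.9 CPM (14.6 to 19.5) and 22.0 CPM (19.8 to 24.4), a log2 ratio of 0.38 (0.12 to 0.64). Chrna4, the usual partner of Chrnb2 in brain, had 6.26 CPM (4.89 to 7.88) and 5.85 CPM (4.74 to 7.13), and the interval of its log2 ratio (-0.10, -0.55 to 0.36) contained 0. The median gene stood at 0.15 on the same scale, and TMM scaling lowered every log2 ratio by 0.10.

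**Figure D1:**
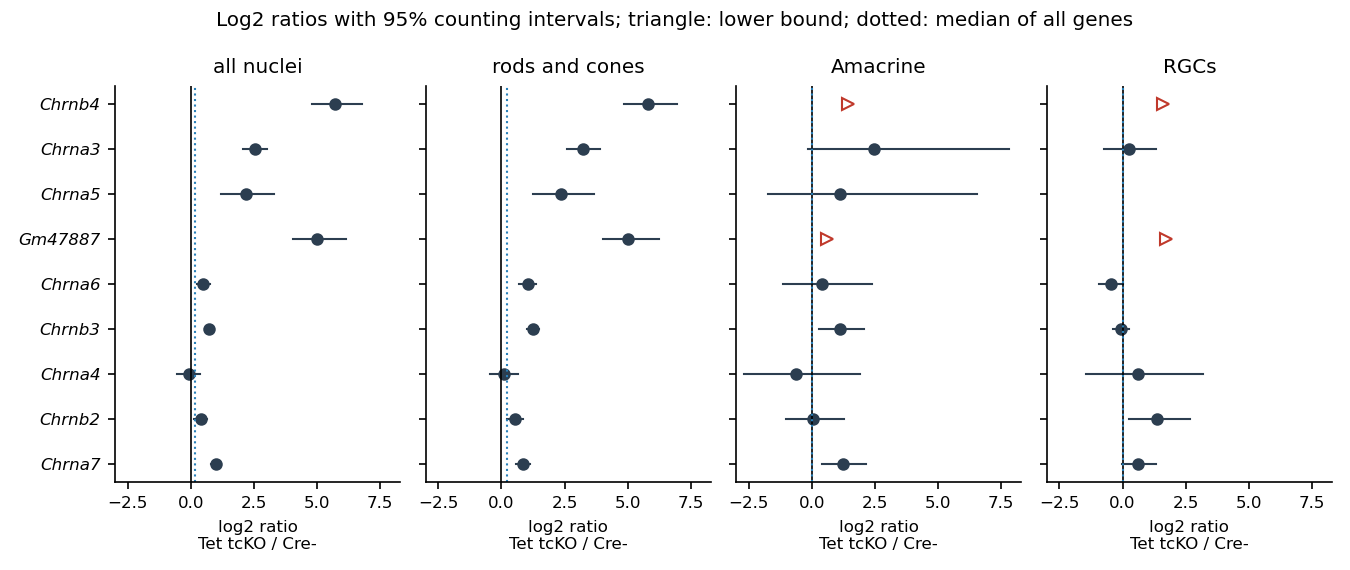
Log2 ratios (Tet tcKO over Cre-) of the 9 genes in all nuclei and in the 3 populations that could be compared, with exact 95% counting intervals as lines. Triangles are lower bounds where Cre- had no UMI, the dotted line is the median of all genes at 10 CPM or more, and the 4 genes of the Chrnb4 locus stand to the right in all nuclei (log2 2.17 to 5.70) while Chrna3 stands at 0.26 in RGCs.

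In rods and cones together, 6 of the 9 members were 2-fold or more higher in Tet tcKO and 0 lower, which was 5 of the 7 that passed 10 CPM, where 6.67% of all genes that passed were higher and 2.58% lower. The count includes Chrnb4 and Gm47887, which were chosen by their ratio. Both of them, and Chrna3, passed 10 CPM only through Tet tcKO, which by itself requires a higher level there. Chrnb4 had 9 UMIs in Cre- (1.19 CPM) and 491 in Tet tcKO (66.3 CPM), a log2 ratio of 5.80 (4.87 to 6.94). Gm47887 had 8 and 251 UMIs (1.06 and 33.9 CPM), a log2 ratio of 5.00 (4.00 to 6.23). Chrna3 stood at 3.04 CPM in Cre- and 28.2 in Tet tcKO (log2 3.22, 2.59 to 3.91), and Chrna5 at 1.06 and 5.40 CPM (log2 2.35, 1.24 to 3.66). The 4 locus genes had levels in Tet tcKO above the Cre- intervals in these cells.

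Chrnb3 and Chrna6 were also higher in rods and cones. Chrnb3 had 204 UMIs in Cre- (26.9 CPM) and 472 in Tet tcKO (63.7 CPM), a log2 ratio of 1.24 (1.00 to 1.49). Chrna6 had 110 and 220 UMIs (14.5 and 29.7 CPM), and its log2 ratio of 1.03 (0.70 to 1.38) was 0.84 with TMM scaling. What part of the Chrnb3 and Chrna6 levels in these cells is RNA of RGCs was not tested. Chrna7 (22.3 and 40.1 CPM, log2 0.85) and Chrnb2 (19.4 and 28.3 CPM, log2 0.55) stayed below 2-fold. Chrna4 had 7.39 and 7.96 CPM, and its log2 ratio of 0.11 (-0.45 to 0.66) became -0.08 with TMM scaling.

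In RGCs the intervals of the log2 ratios of Chrna3, Chrnb3 and Chrna6 contained 0. Of the 9 members 3 were 2-fold or more higher and 0 lower, which was 1 of the 5 that passed 10 CPM, where 3.53% of all genes that passed were higher and 3.2% lower. That 1 was Chrnb2, which passed only through Tet tcKO. The other members past 2-fold were Chrnb4 and Gm47887, which were chosen by their ratio and lay below 10 CPM in both libraries. Chrna3 had 13 UMIs in Cre- (10.6 CPM, 5.63 to 18.1) and 27 in Tet tcKO (12.7 CPM, 8.34 to 18.4), a log2 ratio of 0.26 (-0.74 to 1.34). The intervals overlapped almost wholly, unlike those of Chrna3 in rods and cones. Chrnb3 had 106 CPM (89.0 to 126) and 102 CPM (88.7 to 116), a log2 ratio of -0.07 (-0.39 to 0.26), and Chrna6 had 56.1 CPM (43.6 to 71.0) and 40.8 CPM (32.7 to 50.3), a log2 ratio of -0.46 (-0.93 to 0.02). Whether these ratios differ between rods and cones and RGCs was not tested, since each is a comparison of 1 library with 1 library.

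Chrnb2 was 2-fold or more higher in RGCs, with 8 UMIs in Cre- (6.50 CPM) and 36 in Tet tcKO (16.9 CPM), log2 1.38 (0.25 to 2.69). Chrna7 had 27 and 72 UMIs (21.9 and 33.8 CPM), a log2 ratio of 0.62 (-0.04 to 1.32) that was 1.38 without the 5% deepest nuclei. The log2 ratio of Chrna4 was 0.62 from 3 and 8 UMIs (-1.44 to 3.17), and 2.01 without the nucleus with the most UMIs of that gene. Chrnb4 had 0 UMIs in Cre- RGCs and 16 UMIs in those of Tet tcKO (7.50 CPM), and against the floor of 3 UMIs this was at least 3.08-fold higher. Gm47887 had 0 and 17 UMIs, at least 3.27-fold higher.

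In amacrine cells 5 of the 9 members were 2-fold or more higher and 0 lower, which was 3 of the 4 that passed 10 CPM, where 6.44% of all genes that passed were higher and 6.44% lower. Among the 3 was Chrnb4, which was chosen by its ratio and passed only through Tet tcKO. With nuclei of 1000 UMIs or more the 5 became 3, as Chrna5 (log2 0.68) and Chrnb3 (0.90) fell below 2-fold. Without the nucleus with the most UMIs of each gene Chrna3 was at 0.74, Chrna5 had no ratio and Chrna6 was at 1.25. Chrnb4 had 0 UMIs in Cre- and 34 UMIs in Tet tcKO (14.5 CPM, 10.1 to 20.3), at least 2.70-fold higher, and Gm47887 had 0 and 19 UMIs (at least 1.51-fold). The Cre- amacrine cells held 558558 UMIs, and most members had few counts there. Chrna3 had 1 and 23 UMIs (log2 2.46, -0.17 to 7.82) and Chrna5 had 1 and 9 (log2 1.10, -1.75 to 6.56), so both intervals contained 0. Chrna7 had 14 and 136 UMIs (25.1 and 58.1 CPM; log2 1.21, 0.42 to 2.12). Chrnb3 had 13 and 117 UMIs (23.3 and 49.9 CPM; log2 1.10, 0.27 to 2.05).

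Only 3 clusters had 50 or more nuclei in both libraries. In RGC cluster 2 (8.41% of genes higher, 5.1% lower), Chrnb3 had 125 and 112 CPM (log2 -0.17, -0.65 to 0.33), and Chrnb2, with 2 and 14 UMIs, had a log2 ratio of 2.08 (-0.04 to 5.26). In RGC cluster 31 (11.5% higher, 9.83% lower), Chrna6 had 6 and 16 UMIs, a log2 ratio of -1.04 (-2.47 to 0.60), which TMM scaling took to -0.93. In amacrine cluster 13 (15.4% higher, 12.9% lower), which is led by Chat, the enzyme that makes acetylcholine, Chrnb3 had 2 and 26 UMIs, a log2 ratio of 2.55 (0.55 to 5.67).

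**Figure D2:**
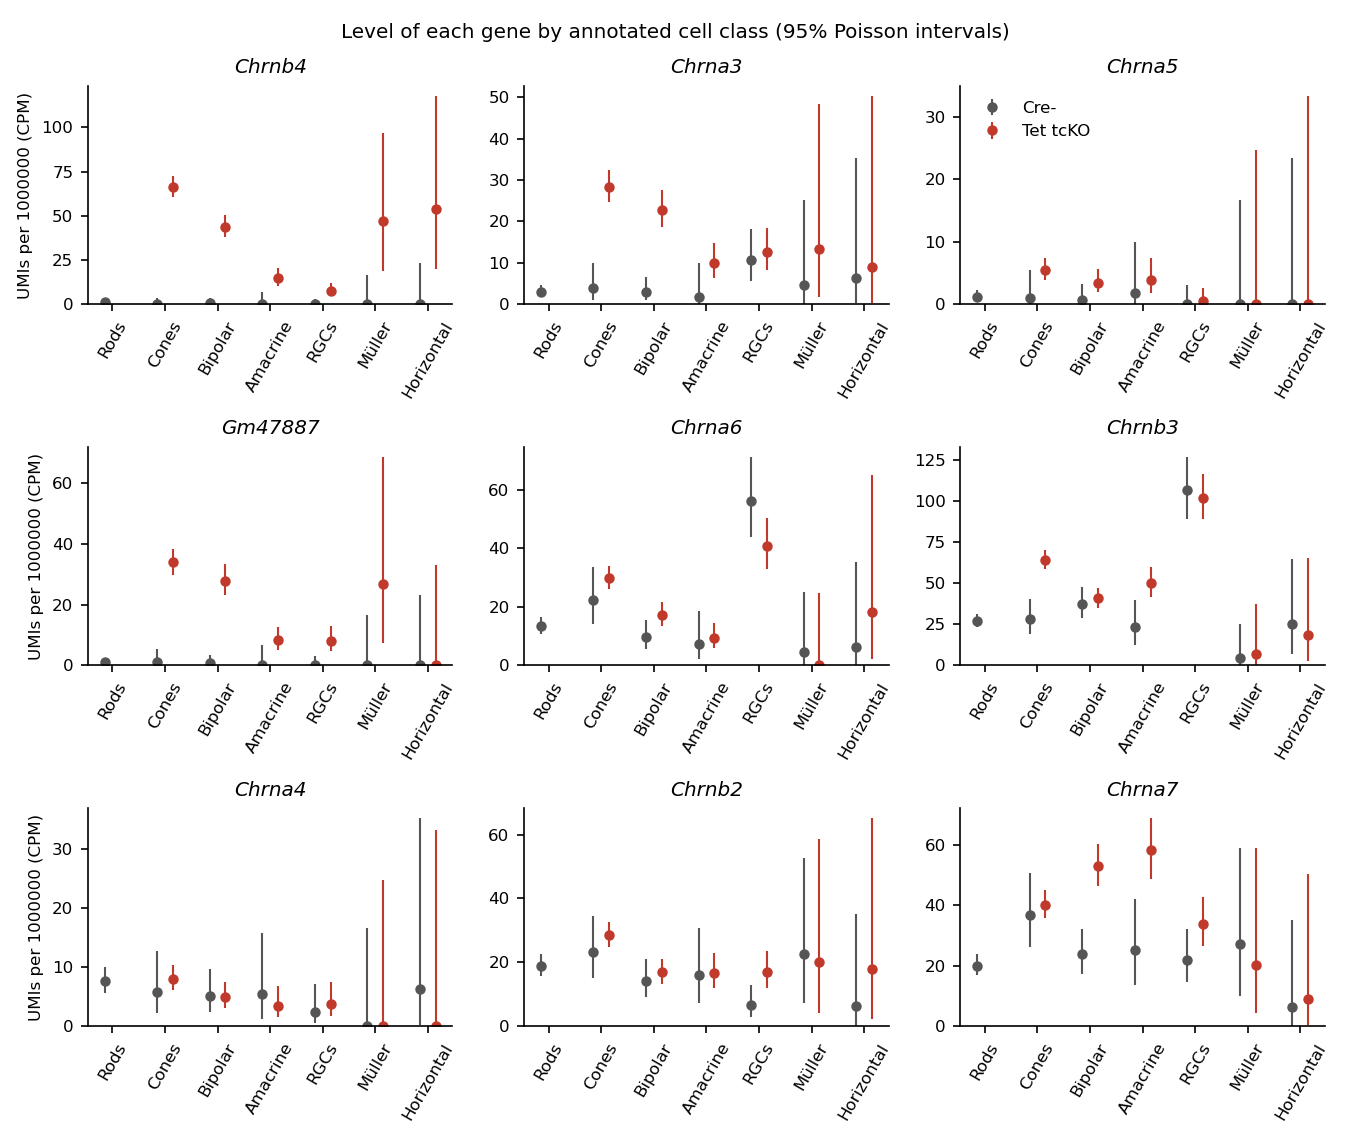
Level of each gene (CPM) in the annotated classes of Cre- (grey) and Tet tcKO (red), with exact 95% Poisson intervals as bars. The 6 Tet tcKO nuclei annotated as rods are not drawn. Chrnb4 and Gm47887 lie near 0 in all Cre- classes and are highest among the larger Tet tcKO classes in cones (66.3 and 33.9), while Chrnb3 is highest in RGCs of both libraries. Chrna6 is highest in RGCs of Cre-, and in Tet tcKO its intervals in RGCs and cones overlap.

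Within Cre-, Chrnb3 and Chrna6 were highest in RGCs. Chrnb3 stood at 106 CPM in RGCs, above bipolar cells (37.4), cones (28.1), rods (26.7), horizontal cells (25.3) and amacrine cells (23.3), whose neighbouring intervals overlapped. Chrna6 stood at 56.1 CPM in RGCs, above cones (22.3) and rods (13.3). In Cre- rods the summed level of 10 RGC markers was 31.1% of that in RGCs (29.5 to 32.9). Chrnb3 there stood at 25.1% of its RGC level (19.9 to 31.7) and Chrna6 at 23.7% (17.1 to 33.0). In Cre- cones the marker sum stood at 20.4% (18.1 to 22.9), Chrnb3 at 26.4% (17.0 to 39.7) and Chrna6 at 39.8% (23.7 to 64.6). What part of these rod and cone levels is RNA of RGCs was not tested. For Chrna7, Chrnb2 and Chrna4 each class overlapped its neighbour in the order, from cones at 36.8 CPM for Chrna7 and 23.3 for Chrnb2. Classes farther apart in the order did not always overlap. The Chrna7 interval in cones (26.1 to 50.6) lay above that in rods (16.7 to 23.8). The Chrnb2 interval in RGCs (2.81 to 12.8) lay below those in rods (15.6 to 22.4) and cones (14.9 to 34.6). Chrna3 was highest in Cre- RGCs at 10.6 CPM, with rods at 2.90 (1.75 to 4.53), below the RGC interval.

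In Cre-, the other genes of the locus were almost undetected. Of the 10 Chrnb4 UMIs, 9 lay in rods (1.38 CPM) and 1 in bipolar cells, and 0 in cones, where the floor of 3 UMIs is 2.91 CPM. Gm47887 had 7 UMIs in rods, 1 in cones and 1 in bipolar cells. Chrna5 had 7 UMIs in rods and 1 each in cones, bipolar and amacrine cells.

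Within Tet tcKO, Chrnb4 was at 66.3 CPM in cones (60.6 to 72.5) and 43.6 in bipolar cells (37.7 to 50.2), against 14.5 in amacrine cells and 7.50 in RGCs. Müller glia stood at 46.9 CPM from 7 UMIs (18.9 to 96.6) and the 37 horizontal nuclei at 54.0 CPM from 6 (19.8 to 118), too few to place. Gm47887 had the same order, with 33.9 CPM in cones, 27.9 in bipolar cells, 8.11 in amacrine cells and 7.97 in RGCs, and the intervals of the first pair and of the last pair overlapped. Chrna3 was at 28.2 CPM in cones, 22.7 in bipolar cells, 12.7 in RGCs and 9.82 in amacrine cells. Chrna7 was highest in amacrine cells (58.1) and bipolar cells (52.9), above cones at 40.1. Chrnb3 was highest in RGCs (102), above cones (63.8) and amacrine cells (49.9). Chrna6 was at 40.8 in RGCs (32.7 to 50.3) and 29.7 in cones (25.9 to 33.9), with overlapping intervals. In Tet tcKO cones the 10 RGC markers in sum stood at 20.4% of RGCs (19.4 to 21.6). Chrnb3 there stood at 62.7% of its RGC level (53.3 to 74.0) and Chrna6 at 72.9% (56.6 to 94.5).

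RNA of cone markers was counted in the other classes too. Across Tet tcKO amacrine cells, the summed level of 9 cone markers (all detected) was 24.8% of that in cones (23.9 to 25.6), with single markers from 15.8% (Gnat2) to 37.3% (Cngb3). Chrnb4 in amacrine cells was 21.9% of its cone level (15.0 to 31.0) and Gm47887 23.9% (14.2 to 38.1). In RGCs the cone markers stood at 15.4% of cones (14.7 to 16.1), Chrnb4 at 11.3% (6.41 to 18.6) and Gm47887 at 23.5% (13.5 to 38.4). Each of these intervals for Chrnb4 and Gm47887 contained the percentage of the cone-marker sum. Those in RGCs are wide, since they rest on 16 UMIs of Chrnb4 and 17 UMIs of Gm47887. What part of these levels is expression in amacrine cells and RGCs, and what part photoreceptor RNA, was not tested. The ratios of both genes between the libraries in those classes carry the same limit.

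Chrna3 in Tet tcKO RGCs stood at 44.8% of its cone level (28.9 to 67.1), above the cone-marker sum and above the median single marker there (14.6%). Single markers ran from 11.8% (Gnat2) to 66.0% (Rxrg), but Rxrg also stood at 335% of its cone level in Cre- RGCs. The part of photoreceptor RNA in Chrna3 there was not tested. In bipolar cells the cone markers reached 92.5% of cones (91.1 to 93.9) in sum and from 26.3% (Pde6h) to 150% (Cngb3) singly, while Chrnb4 stood at 65.8% (55.4 to 77.8), Gm47887 at 82.3% (65.8 to 102) and Chrna3 at 80.5% (62.8 to 103). The part of photoreceptor RNA in the levels of the bipolar-annotated nuclei was not tested.

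Over the 22 Tet tcKO clusters of 50 nuclei or more, Chrnb4 ranged from 6.17 CPM in RGC cluster 15 to 105 in cluster 22, which is annotated as bipolar. Cluster 22 also had the highest levels of Chrna3 (66.6) and Gm47887 (64.0) and the highest cone-marker sum (12652 CPM). It failed the marker check for its name, with Cngb3 and Poteg among its leading genes. The 8 cone clusters ranged from 43.7 (cluster 46) to 83.3 CPM (cluster 48) for Chrnb4. Across the 22 clusters Chrnb4 followed Gm47887 (Pearson r 0.81, Spearman rho 0.74) and Chrna3 (0.74 and 0.70), and Gm47887 followed Chrna3 (0.81 and 0.69). The cone-marker sum followed Chrnb4 at least as closely (r 0.88, rho 0.88), as it did Gm47887 (0.92 and 0.81) and Chrna3 (0.86 and 0.82). Chrna5 did so less (0.31 and 0.31), and the values for Chrna6 (0.00 and 0.12) and Chrnb3 (-0.20 and -0.08) were near 0. The clusters share 1 library, and these are descriptions.

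**Figure D3:**
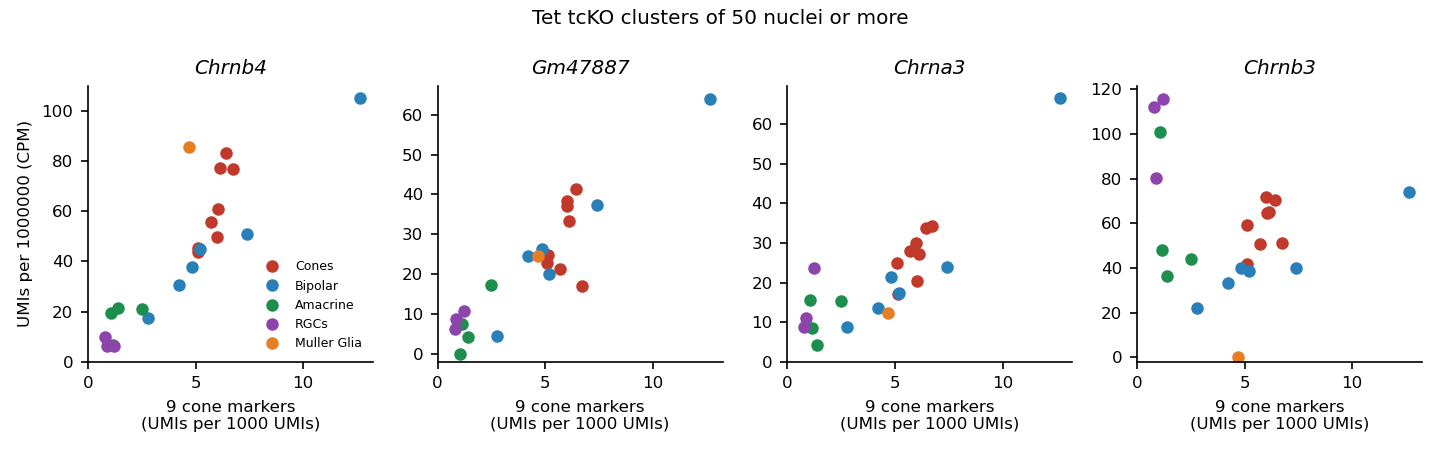
Level of Chrnb4, Gm47887, Chrna3 and Chrnb3 (CPM) against the summed level of 9 cone markers (UMIs per 1000 UMIs) in the 22 Tet tcKO clusters of 50 nuclei or more, coloured by annotated class. Chrnb4, Gm47887 and Chrna3 rise with the cone markers up to cluster 22 (105, 64.0 and 66.6), whereas the highest Chrnb3 levels are in RGC clusters (80.2 to 116) and amacrine cluster 13 (101), which have few cone markers.

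A UMI of any of the 4 locus genes was found in 71 of 7357 Cre- nuclei (0.965%) and in 1299 of 6766 Tet tcKO nuclei (19.2%). In Tet tcKO, Chrnb4 was found in 675 nuclei of 24 of 32 clusters, 612 of them with 1 UMI and none with more than 4. Nuclei differ in depth, so each was thinned at random to 500 UMIs, which left out none. The thinned share with Chrnb4 was then 2.88% of Tet tcKO cones (2.33 to 3.52, against 13.7% unthinned) and 2.67% of bipolar nuclei (1.95 to 3.57; 10.4% unthinned). It was 0.959% in amacrine nuclei (0.461 to 1.76; 3.26% unthinned) and 0.284% in RGCs (0.0344 to 1.02; 2.13% unthinned). In Cre- the thinned share was 0.0384% of rods (0.00465 to 0.138; 0.173% unthinned) and 0 of 265 cones, where the floor of 3 nuclei is 1.13%. Median depths were 1715 UMIs in Tet tcKO cones and 1025.5 in Cre- rods.

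Subunits that pair in receptors were rarely caught in the same nucleus. In Tet tcKO, 51 nuclei held both Chrnb4 and Chrna3, which is 7.56% of the nuclei with Chrnb4 and 15.5% of those with Chrna3. The product of the separate shares within each cluster came to 47.7 nuclei, or 58.3 when each nucleus's depth was taken into account, a form chosen after the values were seen. Chrnb4 with Gm47887 was found in 62 nuclei (products 58.0 and 68.5), and Chrnb3 with Chrna6 in 78 (63.4 and 79.8). In Cre- no nucleus held Chrnb4 with Chrna3, and 17 held Chrnb3 with Chrna6 (products 19.5 and 26.9). Counts of nuclei with both lay near the products.

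Outside the 4 genes, the genes near Chrnb4 that reached 10 CPM stayed below 2-fold. Chrna5, 1 of the 4, did not reach 10 CPM itself. Within 500 kb of Chrnb4, 18 other genes are in the table and 10 of them passed 10 CPM. None of the 10 was 2-fold higher or lower, and their log2 ratios ran from 0.02 (Psma4, a proteasome subunit) to 0.69 (Idh3a, a subunit of a citric acid cycle enzyme), with a median of 0.35. Over all genes at 10 CPM or more the median was 0.15, and 3.18% were 2-fold or more higher and 2.48% lower. A count of 0 in 10 genes lies near these shares. The nearest on the Chrna5 side, Psma4, had 51.4 and 52.1 CPM, and the nearest that passed beyond Gm47887, Ube2q2, had 38.1 and 48.6 CPM (log2 0.35, 0.18 to 0.53). Of the 8 that did not pass, Isl2, a transcription factor gene of RGCs 489.88 kb away, had 33 and 144 UMIs (log2 1.60, 1.04 to 2.19). Crabp1 had a log2 ratio of 0.82 (0.37 to 1.29). The intervals of Gm47877 (log2 2.79, -0.02 to 8.23), Gm17226 (1.06, -1.43 to 4.40) and AY074887 (-0.94, -3.71 to 1.62) contained 0. These genes fall outside the rule for named genes and were chosen after their values were seen.

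**Figure D4:**
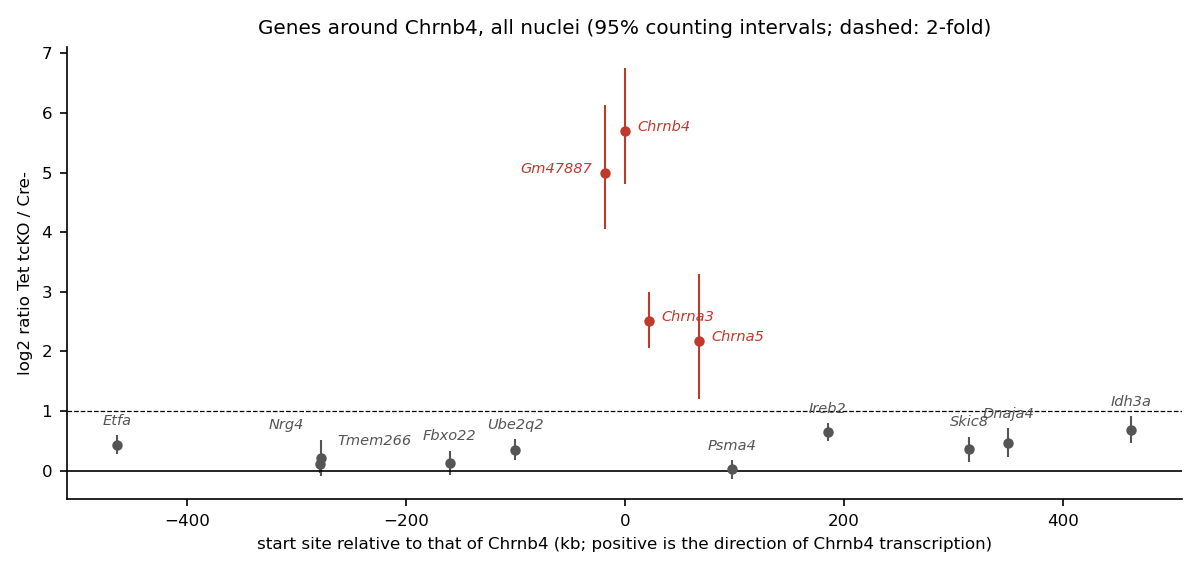
Log2 ratio (Tet tcKO over Cre-, all nuclei) of the 4 locus genes (red) and of the 10 other genes at 10 CPM or more (grey), against the distance of each start site from that of Chrnb4 in kb, with exact 95% counting intervals as bars. The locus genes stand between 2.17 and 5.70, and the others between 0.02 and 0.69, below the dashed 2-fold line.

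Around Chrna6 and Chrnb3, 5 other genes passed 10 CPM within 500 kb, and 2 of them were 2-fold or more higher. Poteg, 33.7 kb from Chrna6, had 25 UMIs in Cre- and 1269 UMIs in Tet tcKO (log2 5.14, 4.57 to 5.77), and Gm1698 had 15 and 1392 (log2 6.01, 5.28 to 6.85), both named after their values were seen. Near Chrna4, 1 of 19 genes passed 2-fold (Gm27032, log2 1.02), and near Chrnb2, 0 of 25 did. Over all genes at 10 CPM or more, 3.18% were 2-fold or more higher and 2.48% lower. Near Chrna7 1 gene passed 10 CPM, with a log2 ratio of -0.23.

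The genes whose levels were most like Chrnb4 over the 12 class-by-library populations of 50 nuclei or more, by Pearson r of log2(CPM + 1), were Gm47887 (0.99), Gm35229 (0.99), Gm45397 (0.98), the axon guidance receptor gene Robo3 (0.97) and the immediate early gene Egr3 (0.97). For Chrna3 they were Gm10419 (0.93), C1galt1 (0.92), Lzts1 (0.91), Disp1 (0.91) and Myocd (0.90), and the r with Chrnb4 was 0.82. For Chrna6 they were Nrn1 (0.94), Prkab2 (0.93), Pcdhac2 (0.93), Resp18 (0.92) and Arhgap22 (0.92), and the r with Chrnb3 was 0.85. The populations share 2 libraries, so these values are descriptions.

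Other genes of acetylcholine signalling had smaller ratios than the 4 genes of the Chrnb4 locus. Of 28 listed names 27 were in the table, all but Nacho, which is another name of Tmem35a, also listed. Of the 27, 13 passed 10 CPM. Of these 13, 2 were 2-fold or more higher and 0 lower (3.18% and 2.48% of all genes). Their median log2 ratio was 0.43 against 0.15 over all genes. Slc5a7, the choline transporter of cholinergic neurons, had 90 UMIs in Cre- (7.82 CPM) and 357 in Tet tcKO (21.5 CPM), log2 1.46, and passed 10 CPM only through Tet tcKO. Lypd6b, a Ly6-family modulator of nicotinic receptors, had 144 and 426 UMIs (12.5 and 25.7 CPM), log2 1.04, which TMM scaling lowers by 0.10 to below 2-fold. Chat, by contrast, had 11.5 and 14.2 CPM. The muscarinic receptor genes Chrm2 (45.2 and 54.7 CPM) and Chrm3 (202 and 273 CPM), the esterase Ache (33.7 and 48.5 CPM), and the assembly factors Ric3 (32.8 and 44.2 CPM) and Tmem35a (11.5 and 15.9 CPM) stayed below 2-fold. Of the other nicotinic subunits, none of Chrna1, Chrna2, Chrna9, Chrna10, Chrnb1, Chrnd, Chrne and Chrng passed 10 CPM.

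By class, Lypd6b was at 35.0 CPM in Cre- RGCs (25.3 to 47.1) and 76.9 in Tet tcKO RGCs (65.6 to 89.6). Slc5a7 in cluster 13 was at 181 CPM in Cre- (112 to 276) and 422 in Tet tcKO (347 to 509), while Chat there was at 318 (224 to 439) and 395 (322 to 480), with overlapping intervals for Chat. Cluster 13 held 21 of the 90 Slc5a7 UMIs in Cre- and 109 of the 357 in Tet tcKO. In Cre-, 42 lay in rods (6.42 CPM) and 15 in bipolar cells (8.50 CPM). In Tet tcKO, 134 lay in cones (18.1 CPM) and 83 in bipolar cells (18.7 CPM).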

How the data were processed

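Nuclei of P21 whole retina were profiled with the PIPseq 3′ kit (v4.0), with 1 library per genotype. The authors aligned and counted reads with pipseeker v3.3.0 (GRCm39), lowered ambient RNA with CellBender, kept nuclei by their transcript totals (the deposited nuclei hold 502 to 9981 UMIs), and clustered and annotated them in Monocle3. The deposited matrices hold raw counts (UMIs) per gene and nucleus. The deposited cell tables also give class, cluster, UMI total, a percent of mitochondrial transcripts and a size factor, a ratio, and the deposited gene table a signal per genotype, the authors' mean of scaled UMIs. The percent, ratio and signal were not used for any value. No doublet caller was run, and the nuclei with the most UMIs were left out in an alternative.

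Counts were summed per library, class and cluster in Python 3.11.15 (pandas 2.3.3, scipy 1.17.1) and divided by the summed UMIs. Levels have exact Poisson, ratios conditional binomial and shares Clopper-Pearson 95% intervals. Where a count was 0, a floor of 3 UMIs took its place, and no ratio was formed where both counts were at or under 3 or the bound fell on the uninformative side of 1. Populations with 50 or more nuclei in both libraries were compared. A call is a ratio of 2-fold or more. Shares over all genes count those at 10 CPM or more, while members were counted both with and without that filter. TMM factors came from edgeR 4.0.16 on the deposited counts, with no test. The scripts were tested on simulated data. Positions came from GENCODE vM39 and promoter sequences from RefSeq. No protein sequence was used here. Genes were named by rule (the 9 members, genes around Chrnb4 and cholinergic genes at 10 CPM or more, and the 5 genes most like Chrnb4, Chrna3 and Chrna6), with exceptions stated. Alternatives were other scalings, other nucleus and gene filters, 1 count per nucleus and gene, and Cre- class shares in both libraries, for which rods and cones were merged, a choice made after seeing the data, since 6 Tet tcKO nuclei were annotated as rods. The members and lists were chosen with earlier results of these data known.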

Additional observations from a re-analysis of the deposited data

How the results depend on the processing

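Each genotype is 1 library, so nothing here measures the spread between animals, and a difference between genotypes cannot be told apart from one between libraries. Of 72 alternative log2 ratios of the members over all nuclei 71 stayed within the reported counting interval, and 0 of 320 in all populations turned a 2-fold call to the other direction. Calls were lost or gained all the same: of 46 pairs of a member and a population, 5 lost a 2-fold call under at least 1 alternative (Chrna6 in rods and cones and in cluster 31, and Chrna3, Chrna5 and Chrnb3 in amacrine cells) and 6 gained one (Chrna7 over all nuclei, in RGCs and in cluster 2, Chrna4 in RGCs, and Chrna6 and Chrna4 in amacrine cells, the last as lower). The members past 2-fold higher numbered 3 to 5 in amacrine cells, 3 to 4 in RGCs and 5 to 6 in rods and cones. The log2 ratio of Chrnb4 over all nuclei ranged from 5.43 (without the 5% deepest nuclei) to 5.99 (Cre- class shares in both libraries), and that of Gm47887 from 4.84 to 5.20. Chrna7 ranged from 0.87 to 1.25 and so crossed 2-fold, which took the members past 2-fold from 4 to 5 without the deepest nuclei. It was also 5 without the nucleus with the most UMIs of each gene and with nuclei of 1000 UMIs or more. In amacrine cells the bound for Chrnb4 fell to 1.01 with nuclei of 1000 UMIs or more, and that for Gm47887 to 0.05 without the deepest nuclei. The number of genes past 2-fold was 632, 1868 at 1 CPM or more and 3405 with no filter other than more than 3 UMIs. The share of Tet tcKO cones with a Chrnb4 UMI was 2.88% thinned to 500 UMIs, 5.99% thinned to 1000 and 13.7% unthinned. No paired analysis was possible because each genotype has 1 library. Depth limits Cre- most, since 10 UMIs or fewer of Chrnb4, Chrna5 and Gm47887 stand behind their levels there.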

Other observations

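The deposited gene table gives, for each gene, a number of nuclei with the gene that is larger than the matrices hold, for example 779 against 685 for Chrnb4 and 419 against 371 for Chrna3. The nuclei behind the difference were not analysed here.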
